A study of Pomacea canaliculata with 12 samples.

Results

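A total of 66 of the 21131 genes in the table (0.312%) were shared by the retina and the eye stalk of the apple snail Pomacea canaliculata, in that both tissues held far more of their RNA than either tentacle type did. The members were chosen by these expression values themselves. A member had at least 2 CPM in every retina and eye stalk library, retina and eye stalk means each at least 8 times both tentacle means, and retina and eye stalk means less than 4-fold apart. CPM are read counts scaled to a common library total with TMM factors, and are not divided by transcript length. They therefore compare libraries for one gene, and the order of genes by CPM is an order of read counts, not of transcript numbers. The differences that the rule fixed are given below as descriptions, without a test.

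Poly(A) RNA was sequenced from 4 tissues, with 3 libraries each. They were retinas taken out of the eye, eye stalks, cephalic tentacles and oral tentacles, the appendages having been amputated. The series belongs to work on eye regeneration, but the labels give no treatment, time after surgery, strain, sex or age, and do not say whether the libraries of a tissue came from different animals or from pools. The p-values thus rest on the spread between libraries alone, and that spread may be technical. Whether the eye stalk samples held the eye is not stated either.

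Apple snails have camera-type eyes, in which a lens throws an image on a cup-shaped retina of photoreceptors and pigmented supporting cells. Each eye sits at the tip of a short stalk beside the base of the cephalic tentacle, and the stalk is covered by skin and carries muscle and the optic nerve. The cephalic and oral tentacles are appendages for touch and chemical sense that bear no eye. In such bulk samples, fewer cells of one kind and less RNA per cell cannot be told apart. All 66 members carry LOC identifiers alone and had no product name in the reference table used here, so no function is given to any of them, and the tissue labels were not checked against marker genes.

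Retina libraries held 40794864 to 45673871 counts, and the other 9 held 10804847 to 21561988. All 66 members passed the low-count filter and were among the 16811 genes tested. A pair of libraries stood apart among the members. In retina replicate 4, 1 gene outside the set, LOC112562530, took 9.34% of all counts, and many members differed from replicates 1 and 3. Eye stalk replicate 3 had the lowest value of the eye stalk libraries for most members. Values with and without these libraries are given where they bear on a result.

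Together the members took 6.71%, 5.67% and 3.44% of the counts in retina replicates 1, 3 and 4. They took 2.65%, 3.04% and 1.87% in eye stalk replicates 1, 2 and 3, and 0.057% to 0.071% in each of the 6 tentacle libraries. Much of this came from the 4 members with the most counts, LOC112555961, LOC112567738, LOC112563139 and LOC112555377, which took 2.22% to 5.35% of the counts in retina and 1.38% to 2.27% in eye stalk. The other 62 members took 1.28 ± 0.075% in retina (SD, n = 3). Among the 4 leading members, LOC112555961 and LOC112567738 were lowest in retina replicate 4, and LOC112563139 and LOC112555377 were not. The share of the other 62 members was 0.64 ± 0.14% for eye stalk. It was 0.022 ± 0.0024% for cephalic and 0.023 ± 0.0023% for oral tentacle.

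**Figure D1:**
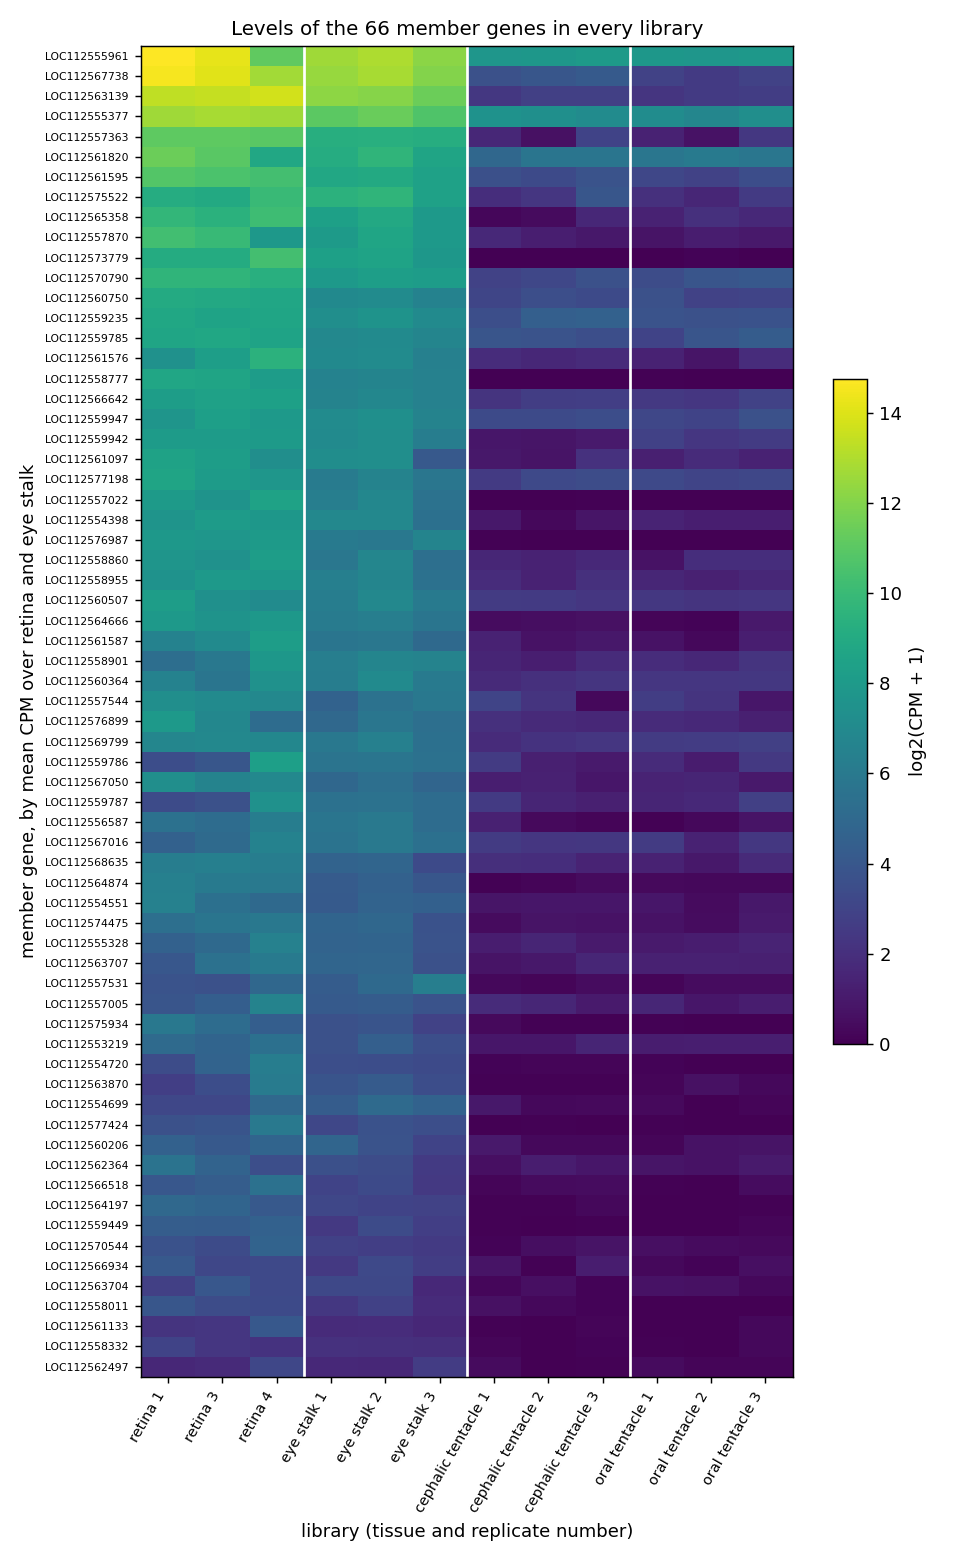
Level of each of the 66 members (rows, by mean CPM over retina and eye stalk) in each of the 12 libraries (columns), as log2(CPM + 1). In every row the 6 retina and eye stalk libraries are above the 6 tentacle libraries, a separation that the rule favours. The brightest rows are LOC112555961, LOC112567738, LOC112563139 and LOC112555377.

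Mean levels ranged from 4.09 to 16459 CPM in retina, with a median over members of 118 CPM, and from 2.47 to 6237 CPM in eye stalk, with a median of 50.2. The medians in cephalic and oral tentacle were 1.25 and 1.5 CPM. In all 66 members the lowest retina or eye stalk library lay above the highest tentacle library. The limits of the rule favour this separation and no share over all genes is given here, so it only describes the set. The retina mean was 11 to 28557 times the higher tentacle mean (median 60.7), and the eye stalk mean was 8.16 to 10974 times that mean (median 28.6). All 66 were called higher in retina than in the tentacles, where 29.6% of all tested genes were called in that direction, and all 66 were called higher in eye stalk, where 13.5% of all tested genes were. The rule used both contrasts, so nothing is read from these counts. The median log2 fold change of the members was 6.16 for retina and 4.99 for eye stalk against the tentacle mean, beside -0.12 and 0.02 over all genes tested.

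LOC112567738 and LOC112563139 had high counts in both eye tissues and few in the tentacles. In retina replicates 1, 3 and 4, LOC112567738 had 24447, 17322 and 6637 CPM, against 5688, 7205 and 4151 CPM in replicates 1, 2 and 3 of eye stalk. In the 6 tentacle libraries it had 4.73 to 17.0 CPM. LOC112563139 had 10228, 11356 and 13683 CPM in retina, 4786, 4334 and 2769 CPM in eye stalk and 3.86 to 5.92 CPM in the tentacles. Neither gene had overlapping eye and tentacle values, but they differed in retina replicate 4, which was the lowest retina library for the first and the highest for the second.

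The other leading members kept more signal in the tentacles. LOC112555961 had 27730.2, 19348 and 2298 CPM in retina against 6386, 7732 and 4592 CPM in eye stalk, but also 211 to 263 CPM in the tentacles, and was nearly level over those 6 libraries. LOC112555377 had 6357, 7273 and 6527 CPM in retina, 2087, 2713 and 1647 CPM in eye stalk and 108 to 180.3 CPM in the tentacles. LOC112561820 had 2736, 2039 and 469 CPM in retina, 563, 816 and 388 CPM in eye stalk and 29.6 to 64.3 CPM in the tentacles. In all, 8 of the 66 members had a mean of at least 10 CPM in a tentacle type, so the set does not consist of genes absent from the tentacles.

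The remaining members among the 10 with the most counts had lower tentacle levels than these. LOC112557363 was close to level within each eye tissue, with 2177, 2215 and 2005 CPM in retina against 607, 629 and 585 CPM in eye stalk, and had 0.59 to 6.81 CPM in the tentacles. LOC112561595 had 1800.3, 1509 and 1297 CPM in retina, 454, 494 and 344 CPM in eye stalk and 6.67 to 12.5 CPM in the tentacles. LOC112565358 had 883, 675 and 1155 CPM in retina, 340.2, 487 and 244 CPM in eye stalk and 0.21 to 3.12 CPM in the tentacles. In both of the last genes named every retina library was above every eye stalk library. LOC112557870 had 1268, 988 and 234 CPM in retina, 259.7, 405 and 238 CPM in eye stalk and 0.72 to 2.23 CPM in the tentacles, and its retina replicate 4 lay below all 3 eye stalk libraries.

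A small number of members were close to undetected in the tentacles. No member had 0 counts over the 6 tentacle libraries, 5 had 1 to 3 counts in all, and 51 had counts in every tentacle library. LOC112558777, LOC112557022, LOC112576987 and LOC112573779 had 1 tentacle count each. For the members with 1 to 3 counts, ratios are of pooled counts in a tissue to pooled counts in all 6 tentacle libraries, scaled by library size. They therefore differ from the ratios to the higher tentacle mean given above. LOC112558777 had 428, 399 and 279 CPM in retina against 94.1, 99.0 and 89.3 CPM in eye stalk, ratios to the tentacles of 36535 (6557 to 1443090.0) and 9380.3 (1682 to 370604), with exact conditional 95% intervals that cover counting error only. LOC112557022 had 259, 189 and 359 CPM in retina against 77.5, 113 and 46.9 CPM in eye stalk, with ratios of 27001 (4846 to 1066520.0) and 7849.9 (1408 to 310159). LOC112576987 had 232, 212 and 261 CPM in retina against 64.5, 58.4 and 102 CPM in eye stalk, with ratios of 23474 (4213 to 927197) and 7469 (1339.5 to 295126). These intervals are wide because they rest on 1 count.

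LOC112573779 had 538, 550.4 and 1323 CPM in retina against 333, 372 and 222 CPM in eye stalk, and stood highest in retina replicate 4. Its pooled ratios to the tentacles were 81355 (14601 to 3213380) in retina and 30781 (5524 to 1215900) in eye stalk. LOC112577424 had 2 tentacle counts, 1 in each tentacle type. It had 11.5, 13.1 and 62.8 CPM in retina against 7.88, 12.4 and 10.5 CPM in eye stalk. Its ratios to the tentacles were 1492 (413 to 12325) in retina and 509 (139.9 to 4216) in eye stalk, and the retina ratio rests largely on replicate 4. By the gap between the lower eye mean and the higher tentacle mean, LOC112563139 was the fifth, at 743 times.

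Levels in retina and eye stalk were compared next. The rule bounds this ratio, so its values and calls describe the set and nothing is read from them. The retina mean was above the eye stalk mean in 63 members and below it in 3. The median ratio was 2.73, with quartiles of 2.12 and 3.28, and in 50 members the eye stalk mean was 25% to 50% of the retina mean. All 3 retina libraries were above all 3 eye stalk libraries in 41 members, the ranges overlapped in 25, and in 0 members were the eye stalk libraries all higher. The same shares over all tested genes are not given here, so these counts only describe the members. The fit called 41 members with retina above eye stalk and 0 with the reverse (edgeR quasi-likelihood test, adjusted p under 0.05), where 25.6% and 28.2% of all tested genes were called. At an unadjusted p under 0.05 these counts were 46 and 1, with no share over all genes given here. DESeq2 called 45 and 1 members, beside 26.7% and 31.4% of all genes it tested. Without retina replicate 4 the fit called 37 members with retina above and 4 with it below, beside 25.2% and 29.5% of all tested genes. Without eye stalk replicate 3 it called 30 and 0 members, beside 22.4% and 25.6% of all tested genes.

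**Figure D2:**
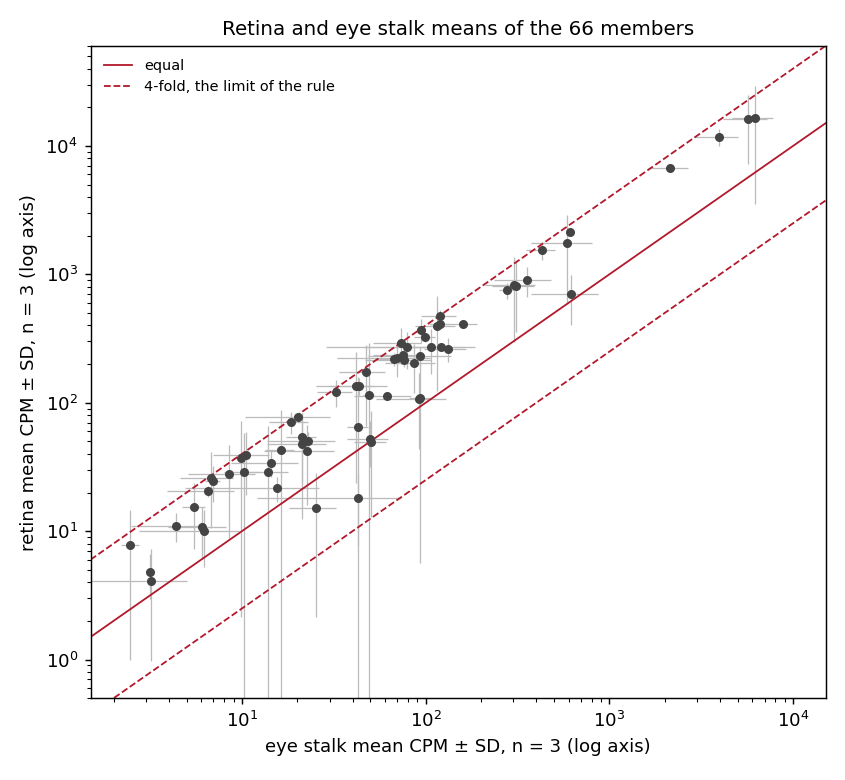
Mean CPM ± SD (n = 3) of each of the 66 members in retina (vertical) and eye stalk (horizontal), both on log axes; bars that reach the edge of the plot extend to 0 or below. Most points lie between the line of equal levels and the upper 4-fold limit, and 3 lie below the line of equal levels.

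The members nearest to or above retina level in eye stalk were few. LOC112557531 had 12.6, 11.5 and 29.97 CPM in retina against 18.5, 32.5 and 77.1 CPM in eye stalk, so that its eye stalk mean was 2.37 times its retina mean, with the excess largest in eye stalk replicate 3. LOC112554699 had 7.73, 7.66 and 30.4 CPM in retina against 18.6, 33.0 and 24.3 CPM in eye stalk, and LOC112567016 had 23.3, 33.6 and 90.9 against 48.1, 61.5 and 42.4 CPM. In both genes retina replicates 1 and 3 lay below every eye stalk library, while retina replicate 4 lay within the eye stalk range for the first and above it for the second. LOC112556587 had 45.2, 36.2 and 75.2 CPM in retina against 52.0, 61.0 and 36.3 CPM in eye stalk, and the ranges overlapped. LOC112575522 had 554, 508 and 1040.0 CPM in retina against 711, 809 and 342 CPM in eye stalk, a ratio of means of 1.13, and its ranges overlapped as well.

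At the other end, the retina mean was close to 4 times the eye stalk mean. LOC112577198 had 394, 270.1 and 214 CPM in retina against 69.4, 96.2 and 54.0 CPM in eye stalk, LOC112560750 had 524, 474 and 430.0 against 129, 139 and 90.7 CPM, and LOC112564874 had 86.7, 65.1 and 61.0 against 17.5, 23.2 and 14.4 CPM. None of these overlapped between the tissues. With LOC112558777 and LOC112566518 they were the 5 members with the highest ratios, from 3.84 to 3.999. A further 42 genes met every other condition and failed only the 4-fold limit, in each case with retina higher, the nearest being LOC112575942, LOC112558815 and LOC112572952 at 4.003, 4.004 and 4.09 times.

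The 8-fold limit for eye stalk and the limit of 2 CPM also had genes close by on both sides, while few lay near the 8-fold limit for retina. At the 8-fold limit for eye stalk, LOC112568635, LOC112559235 and LOC112557005 lay just inside, at 8.16, 8.72 and 8.81 times the higher tentacle mean. Outside it were LOC112564690, LOC112565424 and LOC112553322, at 7.91, 7.65 and 7.41 times, among 62 genes that failed this limit alone. The 8-fold limit for retina excluded 2 genes alone, LOC112564727 at 7.04 times and LOC112561700 at 4.84 times. Inside it the nearest members were LOC112567016 at 11, LOC112566934 at 16.1 and LOC112562497 at 17.9 times. At the limit of 2 CPM, LOC112562497, LOC112561133 and LOC112563704 lay just inside, with lowest libraries of 2.12, 2.16 and 2.24 CPM. Just outside were LOC112566244, LOC112566857 and LOC112574421, at 1.71, 1.70 and 1.70 CPM, among 66 further genes that failed this limit alone.

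The rule set no limit on the spread between libraries of one tissue beyond the minimum of 2 CPM. It used means over 3 libraries, so 1 outlying library could bring a gene into the set or hold it under the 4-fold limit. The spread of members is therefore not free of the rule and is given as a description. In retina the SD of log2(CPM + 1) over the 3 libraries had a median of 0.53 over members, beside 0.26 over the 11569 genes with at least 2 CPM in every retina library. In eye stalk the medians were 0.40 and 0.25, over the 66 members and 13426 genes. Most members, 47 in retina and 53 in eye stalk, were at or above the median of those genes. The range within retina was wide: the highest library was 1.06 to 31.5 times the lowest, with a median of 2.06, and within eye stalk it was 1.07 to 9.27 times, with a median of 1.74.

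The steadiest members in retina were LOC112569799, LOC112559942, LOC112568635, LOC112557363 and LOC112559235, with SDs of 0.048 to 0.099 on the log2 scale. LOC112569799 had 110.3, 117 and 111 CPM in retina against 59.0, 84.1 and 42.6 CPM in eye stalk. LOC112568635 had 74.3, 80.6 and 75.5 CPM in retina but 24.9, 26.7 and 8.86 CPM in eye stalk, so a member could be level in one tissue and uneven in the other. In eye stalk the steadiest were LOC112558332, LOC112557363, LOC112558777, LOC112559786 and LOC112564197, with SDs of 0.038 to 0.12. LOC112564197 had 31.3, 25.9 and 16.4 CPM in retina against 7.72, 6.77 and 6.47 CPM in eye stalk. Of these, LOC112557363 alone was among the steadiest 5 in both tissues. LOC112558332, a low member, had 6.91, 4.15 and 3.42 CPM in retina against 3.24, 3.18 and 3.03 CPM in eye stalk.

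Retina replicate 4 divided the members. It was at least 2-fold above both other retina libraries in 18 members (27.3%) and at least 2-fold below both in 6 (9.09%). Over the genes with at least 2 CPM in every retina library these shares were 5.42% and 2.74%. In 187 genes with a retina mean at least 8 times both tentacle means and at least 4 times the eye stalk mean, they were 12.8% and 5.35%. For replicate 1 the numbers of members were 2 and 2, and for replicate 3 they were 0 and 0. The rule used the mean of the retina libraries, so 1 library could decide membership, and these counts carry no test. The largest excess was in LOC112559786, with 10.1, 14.7 and 318 CPM in the retina libraries against 50.2, 51.9 and 44.9 CPM in eye stalk. LOC112559787 had 9.24, 11.7 and 174 against 44.8, 47.2 and 36.6 CPM, and LOC112563870 had 5.77, 10.3 and 70.9 against 13.3, 18.0 and 10.2 CPM. In these 3 genes retina replicate 4 was the highest of the 12 libraries, and in the first pair retina replicates 1 and 3 lay below every eye stalk library.

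Among the 18 members high in retina replicate 4, the mean of retina replicates 1 and 3 was below the eye stalk mean in 8, and its ratio to eye stalk had a median of 1.13, against 2.47 with replicate 4 included. LOC112558901 was another of them, with 39.5, 59.7 and 228 CPM in retina against 79.5, 103 and 96.8 CPM in eye stalk. LOC112554720 had 9.68, 24.9 and 75.9 CPM in retina against 10.5, 10.4 and 8.78 CPM in eye stalk. Among the 6 members low in retina replicate 4 the ratio moved the other way, to a median of 3.92 with replicates 1 and 3 against 2.90 with all 3. These 6 were LOC112555961, LOC112567738, LOC112561820, LOC112557870, LOC112576899 and LOC112562364. LOC112576899 had 256, 113 and 36.3 CPM in retina against 31.0, 53.6 and 40.4 CPM in eye stalk, and LOC112562364 had 47.8, 24.6 and 10.6 against 11, 9.79 and 4.63 CPM. The 42 members in neither group had a median ratio of 2.76 with replicate 4 and 2.80 without.

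Membership itself depended on this library. With the rule applied again without retina replicate 4, 63 genes qualified, of which 54 were among the 66. The 12 that dropped out included LOC112559786, LOC112559787 and LOC112567016, for which the mean of the remaining retina libraries was under 8 times the higher tentacle mean, and LOC112561820, LOC112562364 and LOC112576899, for which the retina to eye stalk ratio then passed 4. The part played in these values by the share of counts that LOC112562530 took in retina replicate 4 was not tested.

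**Figure D3:**
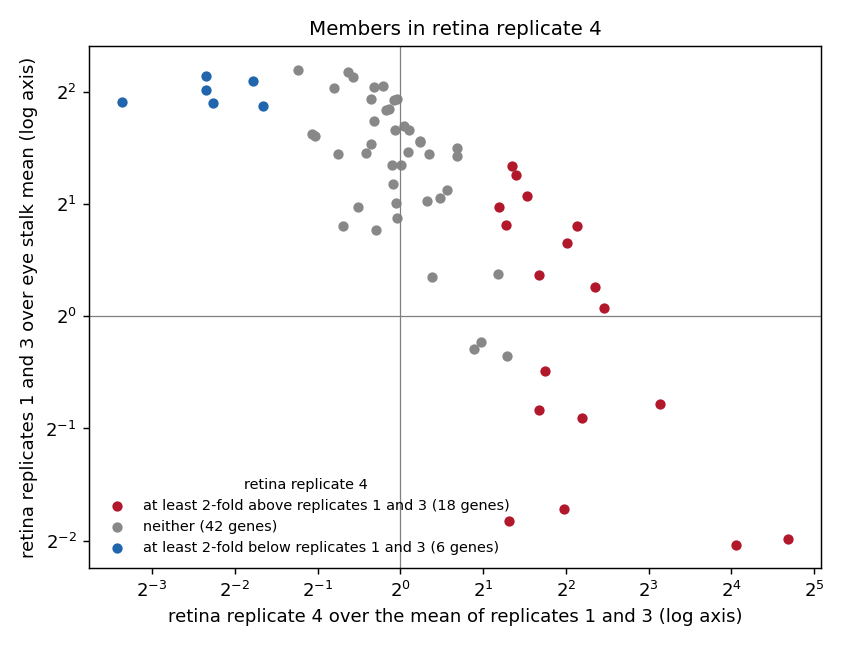
Each of the 66 members by the ratio of retina replicate 4 to the mean of retina replicates 1 and 3 (horizontal) and the ratio of that mean to the eye stalk mean (vertical), both on log2-spaced axes. The 18 members at least 2-fold above both other retina libraries lie to the right and 8 of them fall below a vertical ratio of 1; the 6 at least 2-fold below lie to the upper left.

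The eye stalk libraries showed a more uniform order. Replicate 2 was the highest eye stalk library in 54 of the 66 members (81.8%) and replicate 3 the lowest in 54 (81.8%), and both held in 46. Over the 13426 genes with at least 2 CPM in every eye stalk library these shares were 29.8% and 37.5%, and both held in 18.7%. The level in replicate 3 was a median of 68.1% of the mean of replicates 1 and 2 over members, beside 100.1% over those genes. Counts of members highest in replicate 2 were 57, 57 and 54 with RLE scaling, with TMM factors from the filtered genes and with equal totals, and 54 were lowest in replicate 3 under each. These libraries chose the members only through their mean and the 2 CPM minimum, and the members share the same 3 libraries, so the counts describe these libraries and carry no test.

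Other gene sets were described in the same way, each with at least 2 CPM in every library of its own tissue. In 187 genes with a retina mean at least 8 times both tentacle means and at least 4 times the eye stalk mean, 119 had at least 2 CPM in every eye stalk library. Of these 119, 58.0% were highest in eye stalk replicate 2 and 77.3% lowest in replicate 3, which had a median of 72.1% of the other 2 libraries. In 62 genes with an eye stalk mean at least 8 times both tentacle means and at least 4 times the retina mean, 27.4% were highest in replicate 2 and 29.0% lowest in replicate 3, where the median was 127%. Differences between these sets were not tested, since each rests on the same 3 libraries.

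**Figure D4:**
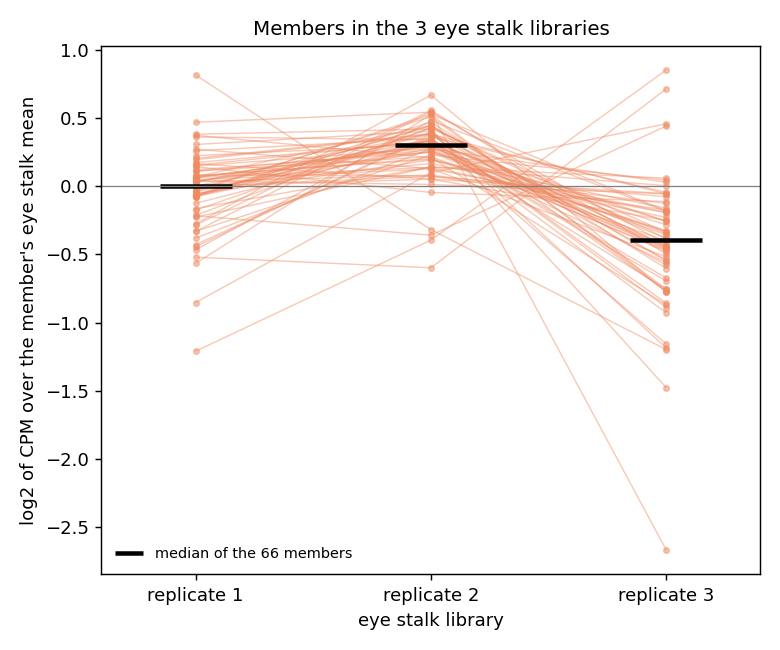
CPM of each of the 66 members in eye stalk replicates 1, 2 and 3, as log2 of the ratio to the member's own eye stalk mean; a line joins the values of 1 gene and the black bars are medians over members. Replicate 2 was the highest library in 54 members and replicate 3 the lowest in 54.

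Some members went against this order. LOC112557531, LOC112562497, LOC112557544 and LOC112576987 were highest in eye stalk replicate 3, at 3.03, 2.42, 1.69 and 1.66 times the mean of the other libraries. LOC112562497 had 2.24, 2.12 and 5.27 CPM in eye stalk and LOC112557544 had 24.1, 46.6 and 59.8 CPM. The lowest relative level in replicate 3 was that of LOC112561097, with 148, 155 and 16.8 CPM in eye stalk and 359.9, 297 and 157 CPM in retina, so that replicate 3 held 11.1% of the mean of the others. LOC112563704 had 8.11, 8.32 and 2.24 CPM in eye stalk, LOC112554398 had 119.9, 118 and 41.8 CPM, and LOC112560206 had 27.4, 12.5 and 6.79 CPM. In all 4 of these genes replicate 3 was the lowest. Applying the rule without eye stalk replicate 3 gave 85 genes that included all 66, and without eye stalk replicate 2 it gave 52 genes, 48 of them among the 66.

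The tentacle types were compared as well, since the rule bounded both from above but did not set them against each other. A single member was called in the fit with tissue as the only term. LOC112559942 had 6.13, 4.05 and 4.97 CPM in oral tentacle replicates 1, 2 and 3 and 0.87, 0.81 and 1.06 CPM in cephalic tentacle replicates 1, 2 and 3, with no overlap. Its log2 fold change was -2.46 ± 0.28 for cephalic against oral tentacle (SE, edgeR quasi-likelihood adjusted p = 0.0041). Same-numbered tentacle libraries deviated together. With a replicate block over all 12 libraries the edgeR adjusted p was 0.039, and with a block in the 6 tentacle libraries alone it was 0.10, at a log2 fold change of -2.48. In the eye tissues this gene had 273, 277 and 258 CPM in retina against 135, 153 and 76.2 CPM in eye stalk.

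Thus, with tissue as the only term, 1 of 66 members (1.52%) was called higher in oral tentacle and 0 higher in cephalic tentacle. Of all tested genes, 0.178% were called in each direction. With a block in the 6 tentacle libraries alone, 0 of the 43 members tested were called in either direction. No share over all genes is given here for that fit, so its count only describes the members. At an unadjusted p under 0.05 the edgeR counts with tissue as the only term were 3 and 3, with no share over all genes given here. DESeq2 called 1 of 64 members in each direction, where it called 1.18% of all genes in the cephalic direction and 1.06% in the oral direction. The cephalic one was LOC112558011, which had 14, 3 and 2 counts in cephalic tentacle replicates 1, 2 and 3 and 0 counts in oral tentacle (DESeq2 adjusted p = 0.032, edgeR adjusted p = 0.14). The cephalic libraries were all above the oral in 4 members and all below in 6, or 6.06% and 9.09%, beside 11.7% and 9.43% of all tested genes. The median log2 fold change between the tentacle types was 0.09 over members and 0.03 over all tested genes. A p that misses the threshold does not show equal levels. In simulated data the edgeR fit called 11% of 2-fold and 49% of 4-fold differences between the tentacle types. The seeded genes had at least 1 CPM over the tentacle libraries. The lower quartile of the members' means was 0.31 CPM in cephalic and 0.30 CPM in oral tentacle. The rates therefore do not cover the members with such low levels.

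Several members lay side by side in the genome. By the gene order of assembly ASM307304v1, all 66 were placed, and 12 of them (18.2%) formed 7 pairs of directly adjacent protein-coding genes. In the set with the stronger retina excess 21 of 187 genes (11.2%) did so, and in the eye stalk set 19 of 62 (30.6%). The pairs made up 2 runs of 3 genes and 3 single pairs. The reference spans overlapped in 3 of the 7 pairs. The strand setting of the counting is not given in the sources used here, and reads of overlapping or near-identical genes may then have been split or shared, so the values of these genes are uncertain to that extent.

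In the first run, LOC112559785, LOC112559787 and LOC112559786 follow each other, and the spans of the first pair overlapped. LOC112559785 was steady in retina, with 407, 446 and 378 CPM, while both its neighbours were far higher in replicate 4 than in the others, with the values given above. In the tentacles LOC112559787 and LOC112559786 had 1.45 to 5.82 and 1.06 to 4.88 CPM. In the second run, LOC112561576 had 177, 311 and 706 CPM in retina against 126, 138 and 83.4 CPM in eye stalk, and LOC112561587 had 93.5, 133 and 299 against 52.2, 57.1 and 31.9 CPM. Both had their highest retina value in replicate 4, while their neighbour LOC112561595 had its lowest there. Spans overlapped in both pairs of this run.

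The single pairs had no overlapping spans. LOC112570544 had 12.1, 9.52 and 24.7 CPM in retina against 6.18, 5.71 and 4.63 CPM in eye stalk, beside LOC112575522 with 554, 508 and 1040.0 against 711, 809 and 342 CPM. LOC112570790 had 821, 802 and 632 CPM in retina against 249, 307 and 279 CPM in eye stalk, next to LOC112558901, which was highest in retina replicate 4 where LOC112570790 was lowest. LOC112563707 had 15.0, 43.6 and 66.6 CPM in retina against 26.9, 28.7 and 11.8 CPM in eye stalk, next to LOC112563704 with 6.05, 15.2 and 8.68 against 8.11, 8.32 and 2.24 CPM. Over the retina libraries some neighbours had the same order, as LOC112559787 and LOC112559786, LOC112561576 and LOC112561587, and LOC112570544 and LOC112575522 did, and others did not.

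**Figure D5:**
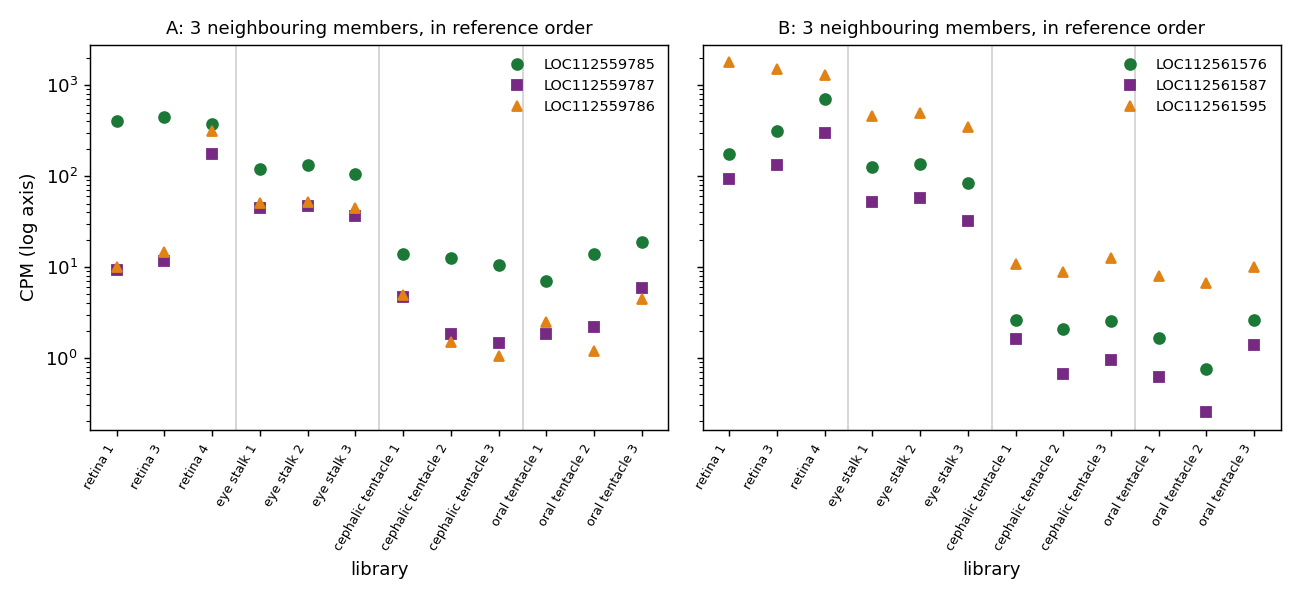
CPM (log axis) in each of the 12 libraries for the 2 runs of 3 adjacent members, LOC112559785, LOC112559787 and LOC112559786 (A) and LOC112561576, LOC112561587 and LOC112561595 (B). In A the last 2 genes reach 174 and 318 CPM in retina replicate 4 from 9.24 to 14.7 CPM in replicates 1 and 3, while LOC112559785 lies between 378 and 446 CPM.

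Genes next to members but outside the set were also examined. There were 117 such genes, of which 96 were tested. Of the 96, 35 (36.5%) were called with retina above the tentacles, beside 29.6% of all tested genes, and 25 (26%) with eye stalk above the tentacles, beside 13.5% (edgeR quasi-likelihood test, adjusted p under 0.05). Both comparisons use the same tentacle libraries.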

How the data were processed

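For 12 libraries, the authors deposited raw counts of reads in each gene as 1 table (the unit was read from the values, all whole). STAR is the aligner that the submitters' processing notes name. For the STAR version, the counter, its strand setting and the genome build, nothing is stated in these sources. Each column matched 1 sample title.

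Members were found with TMM factors from the whole table (edgeR 4.0.16, R 4.3.3). The test was edgeR's quasi-likelihood F-test (robust) on all 12 libraries with tissue as the only term, after filterByExpr at a minimum count of 10, with Benjamini-Hochberg adjustment over the 16811 genes tested and a threshold of 0.05. The tentacle mean is the mean of both tentacle coefficients. SEs were derived from the F statistic. The fit was checked on simulated data for cephalic against oral tentacle only. Differences were seeded in 100 genes at each fold, leaving out genes with the lowest tentacle levels. The fit called 11% of the 2-fold and 49% of the 4-fold differences, and 3 of its 63 calls were false. Alternatives were RLE scaling, TMM factors from filtered genes, no filter, DESeq2 1.42.0, a replicate block, omission of each library, and other limits of the rule. Intervals and the floor of 3 counts cover counting error only.

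The members and lists were chosen with earlier results of these data known. Members named are those with the most counts, the highest and lowest retina to eye stalk ratio, the largest gap to the tentacles, the largest and smallest spread in retina or eye stalk, a call between the tentacles, a place next to a limit, or a neighbouring member. Further genes were named after their values were seen, namely LOC112576899, LOC112562364, LOC112557544, LOC112577424 and LOC112558011. Lists by product name or protein similarity were not used, because no names or sequences were paired with the genes. The reference table served for gene order only.

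Replicate numbers come from the titles. Between cephalic and oral tentacle libraries of equal number, deviations from the tissue means correlated over genes, with r of 0.40, 0.30 and 0.51. The stated fit had no term for this pairing, and fits with a replicate block were run beside it. Other tissues had no such agreement in every pair. For replicates 1, 2 and 3, r was -0.33, 0.03 and -0.38 between eye stalk and cephalic tentacle. Between eye stalk and oral tentacle it was -0.23, 0.002 and -0.36. Pairs with retina had r of -0.13 to 0.02. The replicate block over all tissues fits a replicate effect common to them, which these values do not share. Replicates of a tissue differed beyond sampling noise, with a chi-square of 34.0 to 666 per degree of freedom over genes with enough counts.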

Additional observations from a re-analysis of the deposited data

How the results depend on the processing

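Over 12 omissions of 1 library the rule found 52 to 85 genes, and it found 88 when retina replicate 4 and eye stalk replicate 3 were both omitted, of which 59 were among the 66. A 4-fold minimum over the tentacles gave 113 genes, a 2-fold limit between retina and eye stalk gave 15, and the other scalings and limits gave 44 to 70. Calls against the tentacles numbered 66 with all edgeR settings and 64 with DESeq2, which gave no adjusted p for LOC112559786 and LOC112559787. The rule used these contrasts, so nothing is read from the counts. Of all tested genes, edgeR called 25.2% to 32.3% higher in retina and 8.79% to 16.1% higher in eye stalk, and DESeq2 called 29.3% and 15.5%. Members called higher in retina than eye stalk numbered 30 to 43 over the omissions and 32 with the replicate block. The shares of all tested genes were 21.5% to 25.2% and 23.3%. Members called higher in eye stalk numbered 0 to 4 over the omissions, 4 with the block, 1 with DESeq2 and 3 without both doubted libraries. For these the shares of all tested genes were 23.8% to 29.5%, 27.4%, 31.4% and 27.7%. The number higher in oral tentacle was 1 in each setting except the block in the tentacle libraries alone, where it was 0, with no share over all genes given here. In the other settings the shares of all tested genes were 0.053% to 0.27% with edgeR and 1.06% with DESeq2. The number higher in cephalic tentacle was 0 in each edgeR setting and 1 with DESeq2. There the shares were 0.075% to 0.39% with edgeR, leaving out the block in the tentacle libraries alone, and 1.18% with DESeq2. The block leaves retina replicate 4 alone under its number, so it acts much like omitting it. LOC112559942 was called in 18 of 19 alternatives, at adjusted p from 9.6e-10 to 0.10 with edgeR or DESeq2.

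The log2 fold change between retina and eye stalk changed sign for 10 named members under some settings, and the cause was not tested beyond the omissions themselves. With the replicate block it was -0.33 for LOC112556587, -1.02 for LOC112558901, -2.22 for LOC112559786, -2.18 for LOC112559787, -0.86 for LOC112562497, -0.51 for LOC112563870 and -0.39 for LOC112575522. Over the omissions of 1 library it ranged from -0.29 to 0.34 for LOC112556587, -0.90 to 0.63 for LOC112558901, -1.98 to 1.76 for LOC112559786, -2.03 to 1.11 for LOC112559787, -0.49 to 0.91 for LOC112562497, -0.78 to 1.55 for LOC112563870, -0.83 to 0.30 for LOC112567016 and -0.23 to 0.51 for LOC112575522. Without both libraries it was -0.47 for LOC112556587, -0.066 for LOC112557005, -0.87 for LOC112558901, -2.04 for LOC112559786, -2.14 for LOC112559787, -0.0096 for LOC112560206, -0.96 for LOC112563870 and -0.52 for LOC112575522. With TMM factors from filtered genes it was 0.049 for LOC112567016. With the stated settings it was 0.069 for LOC112556587, 1.40 for LOC112557005, 0.23 for LOC112558901, 1.22 for LOC112559786, 0.60 for LOC112559787, 0.49 for LOC112560206, 0.35 for LOC112562497, 1.07 for LOC112563870, -0.04 for LOC112567016 and 0.17 for LOC112575522.

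The omission of both libraries, the block in the tentacle libraries alone and the other scalings of the library order were chosen after seeing the data. In the tentacles 5 members rest on 1 to 3 counts in all, so their ratios to the tentacles are imprecise.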
